A study of Homo sapiens with 18 samples.

Results

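Genes of the solute carrier (SLC) superfamily, the largest group of membrane transporters in human cells, were followed in U251 cells, an established human glioblastoma line, after an siRNA against the kinase MPS1. The genes were chosen by symbol and by level: every gene on the array with a symbol that begins with SLC and a number, other than SLC7A11, SLC7A5, SLC3A2 and SLC2A1, whose brightest probe set had a mean above 5 over all 18 arrays on the deposited log2 scale. This gave 88 genes of the 238 SLC symbols on the array and of 11963 genes in all. Of the other SLC symbols, 146 were at or below the threshold and 4 were left out by name. The genes just inside the threshold were SLC20A2 (5.07), SLC41A3 (5.06) and SLC2A6 (5.03), and those just outside were SLC9A8 (4.97), SLC2A4RG (4.91) and SLC22A4 (4.90). The threshold used the mean over all groups and not a difference between them. All 88 genes passed the filter on low signals, came from 33 families and included 1 gene that names no carrier, SLC4A1AP, an adaptor protein.

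Cells that had received the MPS1 siRNA (siMPS1), a negative siRNA (siNeg) or no transfection (Control) were measured at 6, 24 and 48 h, with 2 arrays in each of 9 groups. Transfection used 2 pmol of siRNA, and 250 ng of total RNA per sample was labelled for a human 3'-based oligonucleotide array. Cells of all groups were otherwise the same line with no further agent named. No label tells whether a group's 2 arrays stand for separate cultures. The p-values therefore describe the scatter of these arrays alone, which may be technical, and precision is limited by how few there are.

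SLC proteins move solutes across membranes by facilitated diffusion, exchange, or coupling to sodium or proton gradients. Some sit in the plasma membrane and take up amino acids, sugars, vitamins, metals or ions, while others serve organelles: the SLC25 family spans the inner mitochondrial membrane and the SLC35 family brings nucleotide sugars into the Golgi and the endoplasmic reticulum. Glioblastoma cells are known for their dependence on imported glucose and glutamine, and transport of chloride and bicarbonate is part of how such cells set their volume and pH.

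TTK, the gene of MPS1, was lower in siMPS1 than in siNeg at each time, with log2 fold changes of -1.43, -1.88 and -2.30 at 6, 24 and 48 h (limma, adjusted p = 0.000807, 8.87e-06 and 2.35e-07). Of the glial and stem genes, VIM, CD44, NES and SOX2 had mean log2 signals of 11.91, 11.53, 9.01 and 6.47, whereas GFAP (3.27), OLIG2 (1.34), CHI3L1 (1.87) and S100B (-0.25) lay below every array's median (4.30 to 4.56). All 4 blood genes measured (HBB at 3.41, CD3D at 3.02, PTPRC at 1.52 and CD14 at 0.86) also lay below those medians. Of the neuron genes NEFL (10.62) and SYT1 (6.39) lay above them and SNAP25 (3.65) and STMN2 (-0.13) below, and of the epithelial genes KRT18 (9.54) lay above and EPCAM (1.70), CDH1 (0.78) and KRT19 (0.44) below. Control probe sets for RNA quality moved with the groups: at 6 h the Alu signal was 12.96 in siMPS1, 12.48 in siNeg and 12.42 in Control. At 48 h the log2 ratio of the 3' to the 5' probe set of ACTB was 0.90 in siMPS1, 0.12 in siNeg and 0.20 in Control, and the middle 18S rRNA signal was 10.92, 8.63 and 9.87 in the same groups. At 24 h that 18S signal was 9.98 in siMPS1, 10.93 in siNeg and 9.79 in Control. Their part in the results below was not tested. In bulk RNA, fewer cells of a type and less RNA per cell cannot be told apart.

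Against siNeg, most SLC genes were not called at any given time. Of the genes that were called, most were lower at 6 and 24 h, and at 48 h they went in both directions. Genes count as called where limma, fitted to log2(signal + 3), gave a Benjamini-Hochberg adjusted p over 7828 genes of less than 0.05. At 6 h, 1 SLC gene was higher and 10 were lower in siMPS1, or 1.14% and 11.4% of the 88, beside 3.45% higher and 4.25% lower among all genes tested. At 24 h, 6 were higher and 14 lower (6.82% and 15.9%), beside 5.14% and 5.81% of all genes. At 48 h, 15 were higher and 12 lower (17% and 13.6%), shares close to the 15.7% and 13.5% of all genes. The median log2 fold change over the 88 genes was -0.05, -0.06 and 0.06 at 6, 24 and 48 h, and over all genes tested 0.01, 0.00 and 0.03. The counts by class given below stand beside these same shares over all genes. In all, 43 SLC genes were called at 1 or more times and 45 at none, and the 45 included the cationic amino acid carrier SLC7A1 and the adenine nucleotide carrier SLC25A4.

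The counts at 6 and 24 h depended on single arrays. At 6 h the count of 11 was 6 and 1 without siMPS1 replicate 1 and 2, and 2 and 1 without siNeg replicate 1 and 2. At 24 h the count of 20 was 19 and 10 without siMPS1 replicate 1 and 2, and 9 and 11 without siNeg replicate 1 and 2. At 48 h the count of 27 was 19, 23, 22 and 27 when siMPS1 replicate 1 or 2 or siNeg replicate 1 or 2 was left out. The arrays of siMPS1 and siNeg did not overlap for 53.2%, 52.4% and 62.7% of all genes at 6, 24 and 48 h, so a gap between these groups is common among all genes.

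**Figure D1:**
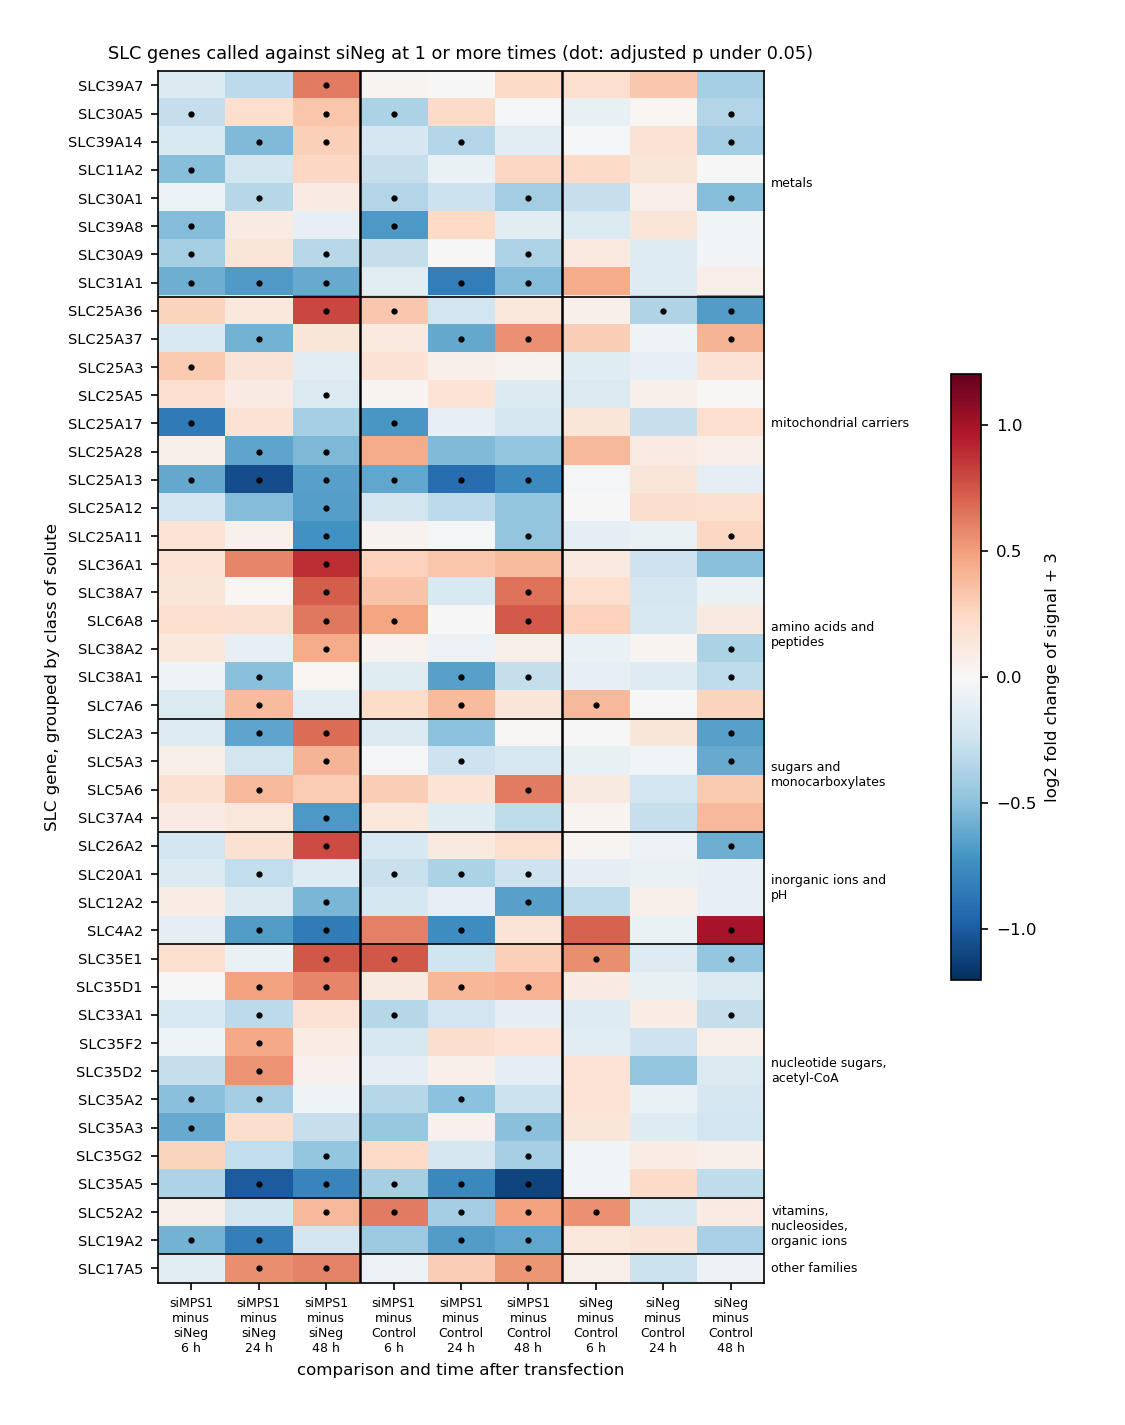
Log2 fold changes of the 43 SLC genes called between siMPS1 and siNeg at 1 or more times, with genes down the page by class of solute and 9 comparisons across; colour gives the log2 fold change of signal + 3 and a dot an adjusted p under 0.05 in limma. SLC31A1 and SLC25A13 are blue with a dot in the first 3 columns, and SLC4A2 is blue against siNeg at 48 h but red in siNeg minus Control.

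**Figure D2:**
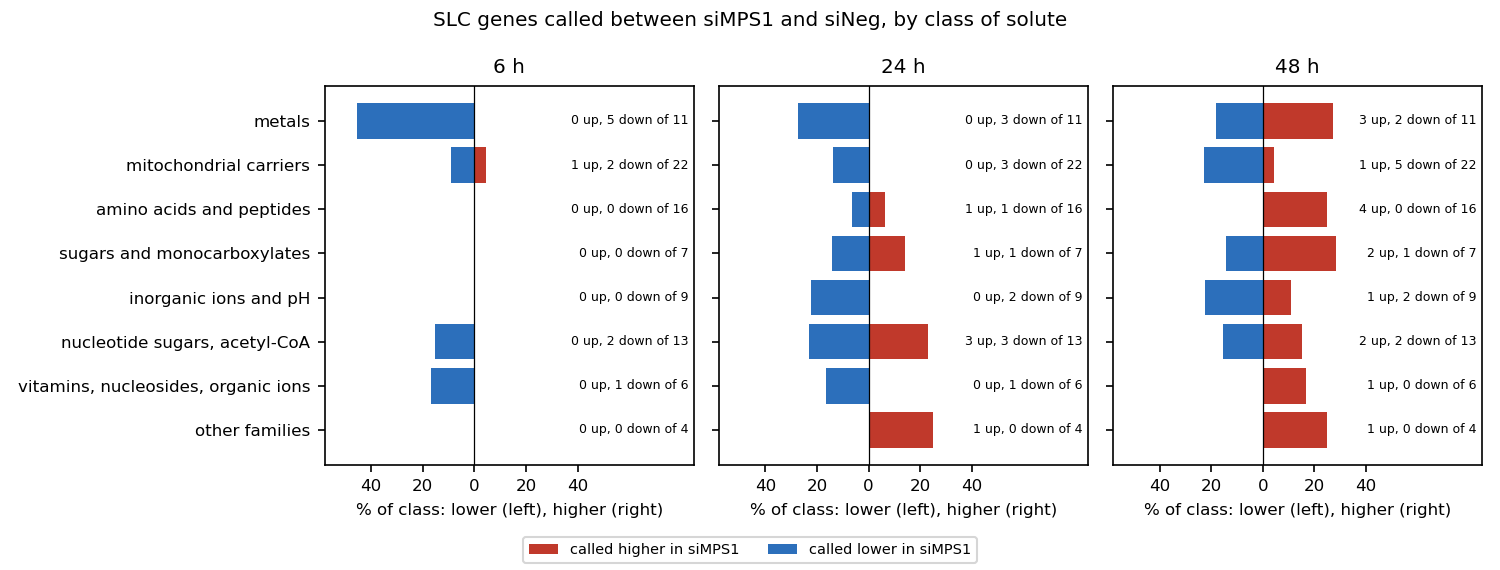
Share of each class of SLC genes called higher (red, to the right) or lower (blue, to the left) in siMPS1 against siNeg at 6, 24 and 48 h; the text in each row gives the counts. Metal carriers had 5 of 11 genes lower and 0 higher at 6 h, and 3 higher and 2 lower at 48 h.

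SLC25A13, SLC31A1 and SLC35A5 were lower in siMPS1 against both siNeg and Control at both 24 and 48 h. SLC25A13 (citrin) exchanges mitochondrial aspartate for cytosolic glutamate in the malate-aspartate shuttle, SLC31A1 (CTR1) is the main importer of copper in the plasma membrane, and SLC35A5 is a member of the nucleotide sugar carrier family. Their promoter windows, from 250 bases before to 50 after the annotated start, are shown because these falls were called in both comparisons at both 24 and 48 h. The sequences come from RefSeq (GRCh38.p14) and run 5′ to 3′ on the strand of the gene: chr7:96322049-96322348 on the minus strand, chr9:113221294-113221593 on the plus strand and chr3:112561070-112561369 on the plus strand. Capitals mark matches, on either strand, to the core of the metal response element (TGCACNC or TGCGCNC) or to the E-box (CACGTG).
SLC25A13: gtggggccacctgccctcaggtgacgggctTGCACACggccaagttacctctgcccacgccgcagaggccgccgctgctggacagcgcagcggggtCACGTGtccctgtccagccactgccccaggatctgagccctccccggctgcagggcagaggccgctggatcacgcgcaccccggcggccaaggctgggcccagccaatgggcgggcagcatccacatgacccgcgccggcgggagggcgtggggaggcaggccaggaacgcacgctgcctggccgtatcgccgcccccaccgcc
SLC31A1: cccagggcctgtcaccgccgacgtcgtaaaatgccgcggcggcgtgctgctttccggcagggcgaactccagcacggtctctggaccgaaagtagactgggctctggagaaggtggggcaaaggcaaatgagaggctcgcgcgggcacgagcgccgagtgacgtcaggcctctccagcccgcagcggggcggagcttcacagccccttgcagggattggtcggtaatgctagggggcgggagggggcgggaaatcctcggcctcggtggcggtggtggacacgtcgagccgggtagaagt
SLC35A5: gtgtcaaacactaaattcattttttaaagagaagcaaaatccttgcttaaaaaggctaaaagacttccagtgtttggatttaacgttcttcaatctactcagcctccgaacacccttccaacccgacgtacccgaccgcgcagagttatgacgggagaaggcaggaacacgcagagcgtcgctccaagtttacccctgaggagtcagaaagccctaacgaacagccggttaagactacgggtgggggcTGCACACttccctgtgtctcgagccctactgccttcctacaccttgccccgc
The SLC25A13 window holds 1 metal response element core and 1 E-box, the SLC35A5 window holds 1 metal response element core, and the SLC31A1 window holds neither. Windows were found for 77 of the 88 genes. The metal response element core was in 33.8% of these 77 and in 29.3% of 27305 promoter windows, and the E-box in 13% and 7.43%. The core of the C/EBP-ATF response element (TGATGNA) was in 7.79% and 10.2%. A match is a stretch of letters and not a binding site, and these motifs do not overlap in the windows shown.

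For SLC31A1 the deposited log2 signals were 5.82 and 5.53 in siMPS1, 6.40 and 6.18 in siNeg, and 5.66 and 5.99 in Control at 6 h. At 24 h they were 6.50 and 6.29 in siMPS1, 7.23 and 6.96 in siNeg, and 7.27 and 7.23 in Control. At 48 h they were 6.58 and 6.25 in siMPS1, 7.13 and 6.95 in siNeg, and 7.03 and 6.88 in Control. Both siMPS1 arrays lay below both siNeg arrays at each time, while at 6 h the siMPS1 and Control arrays overlapped. The log2 fold change against siNeg was -0.59 (SE 0.15, adjusted p = 0.0237) at 6 h, -0.68 (SE 0.15, adjusted p = 0.00617) at 24 h and -0.60 (SE 0.15, adjusted p = 0.00468) at 48 h. Against Control it was -0.14 (adjusted p = 0.548), -0.83 (adjusted p = 0.00112) and -0.52 (adjusted p = 0.0135). With siMPS1 replicate 2 left out the values against siNeg were -0.45 (adjusted p = 0.196), -0.57 (adjusted p = 0.0754) and -0.44 (adjusted p = 0.0775) at the successive times. With siNeg replicate 1 left out they were -0.48 (adjusted p = 0.175), -0.55 (adjusted p = 0.099) and -0.51 (adjusted p = 0.0521), and without siNeg replicate 2 the 6 h value was -0.69 (adjusted p = 0.0615).

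SLC25A13 gave signals of 6.20 and 6.12 in siMPS1, 6.77 and 6.81 in siNeg, and 6.79 and 6.83 in Control at 6 h. Its values at 24 h were 6.55 and 5.62 in siMPS1, 7.09 and 7.28 in siNeg, and 7.02 and 7.05 in Control. By 48 h they were 6.31 and 6.43 in siMPS1, 6.90 and 7.18 in siNeg, and 7.16 and 7.16 in Control. No siMPS1 array reached any siNeg or Control array at any time, and the 2 siMPS1 arrays at 24 h were far apart. The fall against siNeg was -0.61 (SE 0.18, adjusted p = 0.0479) at 6 h, -1.06 (SE 0.18, adjusted p = 0.000992) at 24 h and -0.65 (SE 0.18, adjusted p = 0.0119) at 48 h, and against Control -0.63, -0.91 and -0.77 (adjusted p = 0.0268, 0.00291 and 0.00453). The 24 h call held when any 1 of its 4 arrays was left out. At 6 h no call was made without siMPS1 replicate 1 (-0.65, adjusted p = 0.104), siMPS1 replicate 2 (-0.57, adjusted p = 0.209), siNeg replicate 1 (-0.63, adjusted p = 0.164) or siNeg replicate 2 (-0.59, adjusted p = 0.189). At 48 h the call was lost without siMPS1 replicate 1 (-0.59, adjusted p = 0.0744) or siNeg replicate 2 (-0.51, adjusted p = 0.111).

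SLC35A5 had signals of 5.98 and 5.79 in siMPS1, 6.89 and 6.95 in siNeg, and 6.77 and 6.60 in Control at 24 h. At 48 h they were 5.78 and 5.59 in siMPS1, 6.46 and 6.57 in siNeg, and 6.77 and 6.89 in Control. The siMPS1 arrays were the lowest at both times, and at 48 h the siNeg arrays were also below those of Control. Its log2 fold change against siNeg was -0.37 (adjusted p = 0.084) at 6 h, -1.0 (SE 0.13, adjusted p = 5.35e-05) at 24 h and -0.80 (SE 0.13, adjusted p = 0.000125) at 48 h. Against Control the values were -0.40, -0.77 and -1.10 (adjusted p = 0.0383, 0.000562 and 7.39e-06). Both later calls against siNeg held in every alternative fit that was run.

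**Figure D3:**
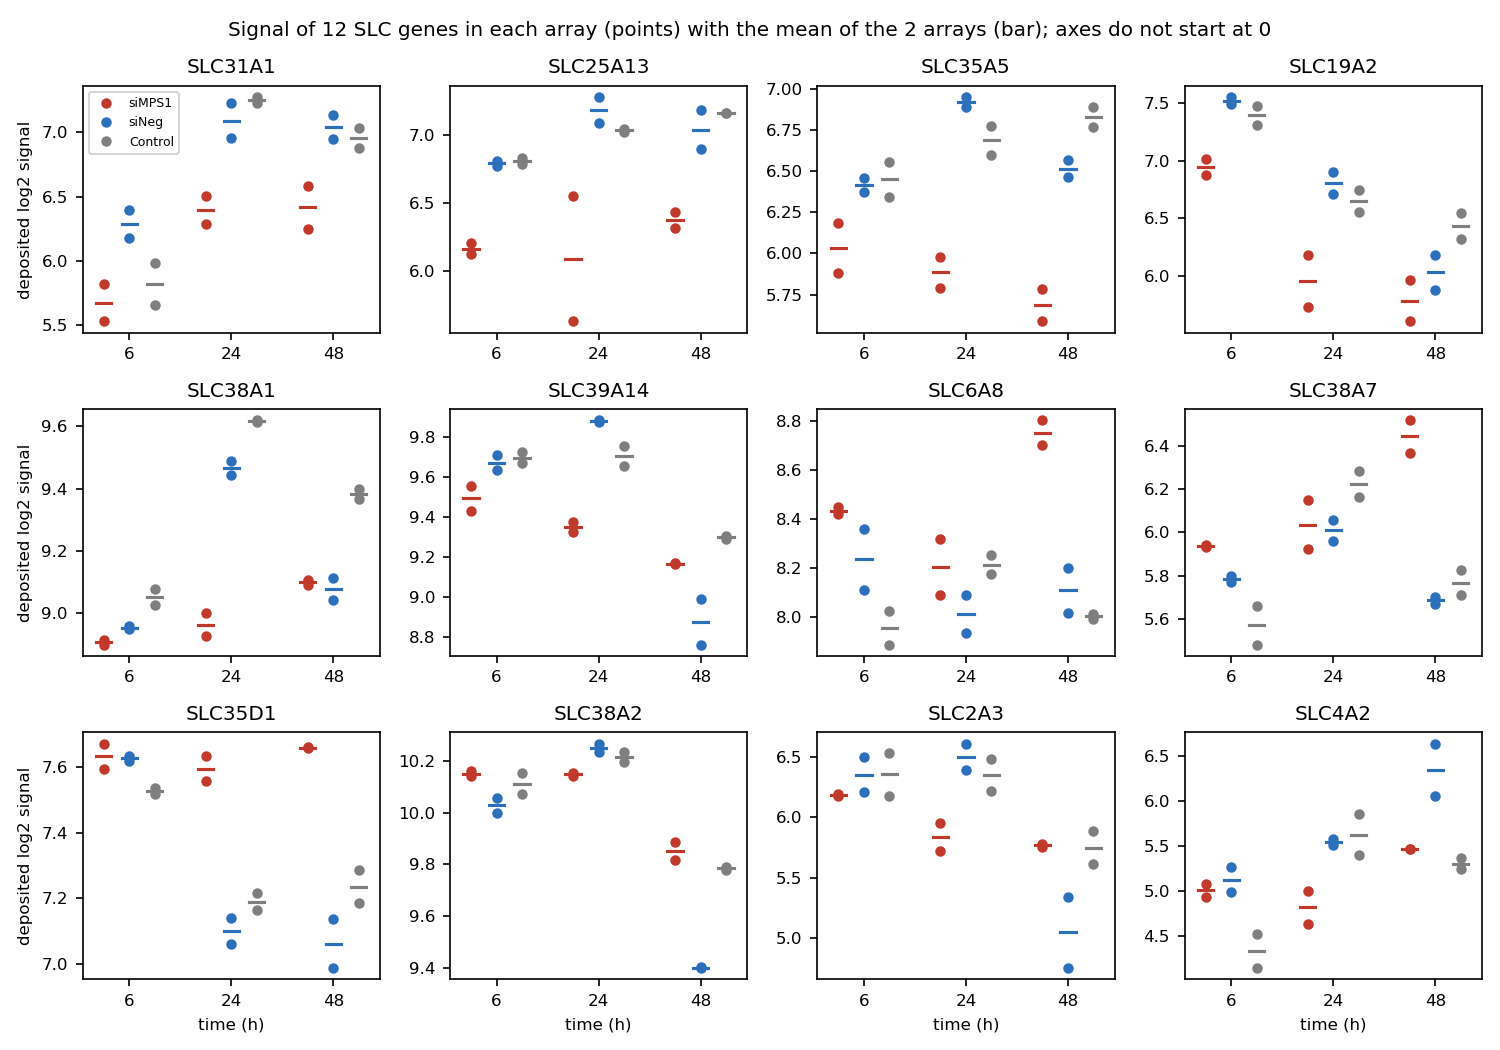
Deposited log2 signal of 12 SLC genes in every array (points) with the mean of the 2 arrays of a group (bars), against time in h, with siMPS1 left of siNeg and Control at each time; the axes do not start at 0. SLC35D1 and SLC6A8 show siMPS1 above siNeg and Control at 48 h, while SLC38A2 and SLC2A3 show siNeg below both other groups at 48 h.

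Among the 11 metal carriers, 5 were lower and 0 higher against siNeg at 6 h, 3 were lower at 24 h, and 3 were higher and 2 lower at 48 h. Over all genes 4.25% were lower at 6 h and 5.81% at 24 h, and at 48 h 15.7% were higher and 13.5% lower. The class median was -0.20, -0.27 and 0.17 at the successive times. Besides SLC31A1, the genes lower at 6 h were SLC39A8 (ZIP8) and SLC11A2 (DMT1), which import divalent metals, SLC30A9 of the zinc transporter family, and SLC30A5 (ZnT5), which loads zinc into the secretory pathway. SLC39A8 read 6.56 and 6.93 in siMPS1, 7.22 and 7.32 in siNeg, and 7.41 and 7.48 in Control at 6 h, with both siMPS1 arrays below the other 4. Its change against siNeg was -0.52 (SE 0.11, adjusted p = 0.0113) and against Control -0.69 (adjusted p = 0.00077), and its second probe set gave -0.11 against siNeg. SLC11A2 was at -0.51 (adjusted p = 0.025) against siNeg and -0.28 (adjusted p = 0.144) against Control, SLC30A9 at -0.40 (adjusted p = 0.0241) and -0.28 (adjusted p = 0.0623), and SLC30A5 at -0.29 (adjusted p = 0.04) and -0.38 (adjusted p = 0.00547). None of these 6 h calls held when each array was left out in turn. SLC11A2 was at -0.39 (adjusted p = 0.196) without siMPS1 replicate 2 and -0.37 (adjusted p = 0.217) without siNeg replicate 2. SLC39A8 was at -0.33 (adjusted p = 0.0899) without siMPS1 replicate 1, -0.56 (adjusted p = 0.0519) without siNeg replicate 1 and -0.47 (adjusted p = 0.085) without siNeg replicate 2. SLC30A9 and SLC30A5 lost the call without any one of the 4 arrays, at -0.33 (adjusted p = 0.119), -0.46 (adjusted p = 0.0772), -0.39 (adjusted p = 0.125) and -0.40 (adjusted p = 0.109) for SLC30A9 and -0.31 (adjusted p = 0.0861), -0.27 (adjusted p = 0.183), -0.28 (adjusted p = 0.176) and -0.30 (adjusted p = 0.135) for SLC30A5, in the order siMPS1 replicate 1 and 2 and siNeg replicate 1 and 2.

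SLC39A14 (ZIP14), an importer of zinc, iron and manganese, was lower at 24 h and higher at 48 h against siNeg. Its signals were 9.38 and 9.32 in siMPS1, 9.88 and 9.88 in siNeg, and 9.76 and 9.66 in Control at 24 h. At 48 h they were 9.16 and 9.17 in siMPS1, 8.76 and 8.99 in siNeg, and 9.29 and 9.31 in Control. The siMPS1 arrays were the lowest at 24 h, and at 48 h they lay between those of siNeg and Control. The changes against siNeg were -0.53 (SE 0.07, adjusted p = 0.000104) and 0.29 (SE 0.07, adjusted p = 0.005), against Control -0.35 (adjusted p = 0.00313) and -0.13 (adjusted p = 0.185), and siNeg minus Control at 48 h was -0.42 (adjusted p = 0.00075). Without siNeg replicate 1 the 48 h value was 0.18 (adjusted p = 0.104). SLC39A7 (ZIP7), which releases zinc from the endoplasmic reticulum, rose by 0.62 (adjusted p = 0.0079) at 48 h against siNeg, with 0.23 (adjusted p = 0.336) against Control, and without siMPS1 replicate 2 it was at 0.45 (adjusted p = 0.111). SLC30A5 rose by 0.34 (adjusted p = 0.00481) at 48 h, with -0.02 (adjusted p = 0.901) against Control and -0.35 (adjusted p = 0.00822) for siNeg minus Control. SLC30A1 (ZnT1), named after its values were seen, is the zinc exporter of the plasma membrane. It fell at 24 h with a change of -0.34 (adjusted p = 0.0335) against siNeg, and at 48 h it was at 0.10 (adjusted p = 0.518) against siNeg and -0.42 (adjusted p = 0.00436) against Control. SLC30A9 fell at 48 h with a change of -0.33 (adjusted p = 0.0178) against siNeg and -0.37 (adjusted p = 0.0109) against Control. It was no longer called against siNeg without siMPS1 replicate 1 (-0.35, adjusted p = 0.0595), siMPS1 replicate 2 (-0.32, adjusted p = 0.082) or siNeg replicate 2 (-0.26, adjusted p = 0.143).

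Metallothioneins, the zinc and copper binding proteins of the cytosol, were among the other genes of transport that were listed. MT1E, MT2A, MT1X and MT1F were higher in siMPS1 against siNeg at 6 h, by 0.48, 0.33, 0.29 and 0.26 (adjusted p = 0.00123, 0.0112, 0.0179 and 0.025). At 24 h MT1F, MT2A and MT1X were lower, with changes of -0.37 (adjusted p = 0.00135), -0.27 (adjusted p = 0.0158) and -0.25 (adjusted p = 0.0209). The same genes stood at 0.44, 0.18, 0.23 and 0.18 against Control at 6 h (adjusted p = 0.000995, 0.077, 0.0303 and 0.0665). Members of this family are close in sequence, so the probe sets may share signal between them. For these genes no 48 h values and no values with single arrays left out are given. Of the 11 SLC calls against siNeg at 6 h, 0 held in every setting.

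Of the 22 genes of the SLC25 family, 1 was higher and 2 were lower against siNeg at 6 h, 3 were lower at 24 h, and 1 was higher and 5 were lower at 48 h. The median of the class was -0.05, -0.07 and -0.06 at 6, 24 and 48 h. SLC25A12 (aralar) and SLC25A11, the oxoglutarate carrier, are mitochondrial carriers of the malate-aspartate shuttle, as SLC25A13 is, and all 3 were lower than in siNeg at 48 h. SLC25A12 had signals of 5.71 and 5.81 in siMPS1, 6.44 and 6.47 in siNeg, and 6.26 and 6.23 in Control at 48 h, with the siMPS1 arrays below the other 4. Its change was -0.52 (adjusted p = 0.0675) at 24 h and -0.66 (SE 0.18, adjusted p = 0.00889) at 48 h against siNeg, and -0.46 (adjusted p = 0.0604) against Control at 48 h. SLC25A11 read 7.86 and 7.87 in siMPS1, 8.64 and 8.55 in siNeg, and 8.35 and 8.33 in Control at 48 h, and the 3 groups did not overlap. It was lower with a change of -0.72 (SE 0.07, adjusted p = 6.59e-07) against siNeg and with a change of -0.47 (adjusted p = 9.05e-05) against Control, while siNeg minus Control was 0.25 (adjusted p = 0.0256). A second SLC25A11 probe set, with a mean of 7.06 against 7.74, gave 0.13 at 48 h, so the fall was seen with 1 of the 2 probe sets. The second probe set of SLC25A12 gave -0.20. Without siMPS1 replicate 1 SLC25A12 was at -0.61 (adjusted p = 0.0587).

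The mitoferrins SLC25A37 and SLC25A28, which carry iron into mitochondria, were both lower against siNeg at 24 h. SLC25A37 had 5.44 and 5.07 in siMPS1, 5.87 and 5.85 in siNeg, and 5.85 and 5.98 in Control at 24 h, and SLC25A28 had 5.73 and 5.22 in siMPS1, 6.29 and 6.0 in siNeg, and 6.30 and 5.78 in Control. The siMPS1 arrays were the lowest for both genes. SLC25A37 stood at -0.57 (SE 0.13, adjusted p = 0.00867) against siNeg and -0.62 (adjusted p = 0.00447) against Control, and its second probe set gave -0.21 against siNeg. SLC25A28 stood at -0.63 (SE 0.20, adjusted p = 0.0465) against siNeg and -0.53 (adjusted p = 0.0841) against Control. At 48 h SLC25A28 was lower, at -0.54 (adjusted p = 0.0462) against siNeg, with -0.46 (adjusted p = 0.0896) against Control, whereas SLC25A37 stood at 0.14 (adjusted p = 0.452) against siNeg and was higher against Control, by 0.55 (adjusted p = 0.00466), as siNeg was by 0.40 (adjusted p = 0.0488). The 24 h call of SLC25A37 was lost without siMPS1 replicate 2 (-0.39, adjusted p = 0.127) or siNeg replicate 1 (-0.56, adjusted p = 0.0633). That of SLC25A28 was lost without siMPS1 replicate 2 (-0.39, adjusted p = 0.371), siNeg replicate 1 (-0.49, adjusted p = 0.286) or siNeg replicate 2 (-0.77, adjusted p = 0.0735), and at 48 h it was lost without siMPS1 replicate 1 (-0.38, adjusted p = 0.286), siNeg replicate 1 (-0.55, adjusted p = 0.129) or siNeg replicate 2 (-0.54, adjusted p = 0.133).

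SLC25A36, a carrier of pyrimidine nucleotides into mitochondria, was the 1 gene of its family called higher against siNeg at 48 h. Its signals were 8.28 and 8.42 in siMPS1, 7.52 and 7.56 in siNeg, and 8.35 and 8.09 in Control, with siNeg below both other groups and siMPS1 overlapping Control. The change was 0.80 (SE 0.08, adjusted p = 1.53e-06) against siNeg and 0.13 (adjusted p = 0.279) against Control, with -0.67 (adjusted p = 4.99e-05) for siNeg minus Control. Its other probe sets gave 0.32 and 0.07 against siNeg. The adenine nucleotide translocase SLC25A5 and the phosphate carrier SLC25A3 had the brightest probe sets of all 88 genes, with means of 11.21 and 11.16, though brightness cannot be compared between probe sets as an amount of RNA. SLC25A3 had 11.32 and 11.40 in siMPS1 and 11.07 and 11.01 in siNeg at 6 h. Against Control it stood at 0.17 (limma, adjusted p = 0.07) at 6 h, with -0.15 (limma, adjusted p = 0.202) for siNeg minus Control. It was higher against siNeg at 6 h, by 0.32 (adjusted p = 0.00734). It was at 0.28 (adjusted p = 0.0891) without siMPS1 replicate 2 and 0.29 (adjusted p = 0.0698) without siNeg replicate 2. SLC25A5 was lower at 48 h with a change of -0.18 (adjusted p = 0.0463), and was not called without siMPS1 replicate 1 (-0.17, adjusted p = 0.14), siMPS1 replicate 2 (-0.18, adjusted p = 0.122) or siNeg replicate 1 (-0.11, adjusted p = 0.32). SLC25A17, which belongs to this family but serves peroxisomes, was lower at 6 h. It had 5.46 and 5.70 in siMPS1, 6.78 and 6.14 in siNeg, and 6.03 and 6.59 in Control, a wide spread in every group but siMPS1, and stood at -0.84 (SE 0.20, adjusted p = 0.0184) against siNeg and -0.70 (adjusted p = 0.0247) against Control. Its second probe set gave -0.03 at 6 h. Its call was lost without siMPS1 replicate 1 (-0.73, adjusted p = 0.0888), siMPS1 replicate 2 (-0.95, adjusted p = 0.0708) or siNeg replicate 1 (-0.53, adjusted p = 0.21).

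Of the mitochondrial partners outside the SLC families, MPC1, a subunit of the pyruvate carrier, was lower against siNeg at 24 h with a change of -0.61 (adjusted p = 0.000734). No value against Control is given for MPC1. At 48 h its partner MPC2 was lower with a change of -0.28 (adjusted p = 0.00952) and VDAC1, the channel of the outer membrane, with a change of -0.32 (adjusted p = 0.00315), while SFXN3 of the sideroflexin family was higher by 0.73 (adjusted p = 0.000366). Against Control at 48 h the values were -0.44 (adjusted p = 0.000304) for MPC2, -0.15 (adjusted p = 0.133) for VDAC1 and 0.76 (adjusted p = 0.000358) for SFXN3.

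The 13 genes of the SLC35 and SLC33 families, the class named for nucleotide sugars and acetyl-CoA, moved in both directions. The class was set by family number and not by the solute of each gene. At 6 h 2 were lower, at 24 h 3 were higher and 3 lower, and at 48 h 2 were higher and 2 lower, with class medians of -0.19, -0.07 and -0.06. SLC35A2, the carrier of UDP-galactose into the Golgi, and SLC35A3, the carrier of UDP-N-acetylglucosamine, were lower against siNeg at 6 h. The changes were -0.50 (adjusted p = 0.0183) and -0.60 (adjusted p = 0.0475). Against Control at 6 h neither was called, at -0.34 (limma, adjusted p = 0.056) for SLC35A2 and -0.46 (limma, adjusted p = 0.0862) for SLC35A3. SLC35A2 read 7.16 and 7.22 in siMPS1, 7.77 and 7.63 in siNeg, and 7.41 and 7.66 in Control at 6 h and 7.20 and 7.36 in siMPS1, 7.84 and 7.56 in siNeg, and 7.78 and 7.78 in Control at 24 h. The siMPS1 arrays were the lowest of the 6 at both times, and the change at 24 h was -0.41 (adjusted p = 0.0305) against siNeg and -0.50 (adjusted p = 0.00988) against Control. Its second probe set gave 0.21 at 6 h and -0.54 at 24 h. At 6 h SLC35A2 was at -0.47 (adjusted p = 0.0693) and -0.53 (adjusted p = 0.0905) without siMPS1 replicate 1 and 2, and at -0.43 (adjusted p = 0.136) and -0.57 (adjusted p = 0.0587) without siNeg replicate 1 and 2. At 24 h it was at -0.33 (adjusted p = 0.158) and -0.49 (adjusted p = 0.0552) without the siMPS1 arrays in turn and -0.28 (adjusted p = 0.29) without siNeg replicate 1. At 6 h SLC35A3 was at -0.62, -0.58, -0.61 and -0.59 against siNeg in the same order of arrays, and its call was lost each time.

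SLC35D1, which brings UDP-glucuronic acid and UDP-N-acetylgalactosamine into the endoplasmic reticulum for the chains of proteoglycans, was higher at 24 and 48 h. Its signals were 7.56 and 7.63 in siMPS1, 7.14 and 7.06 in siNeg, and 7.16 and 7.22 in Control at 24 h and 7.66 and 7.66 in siMPS1, 6.99 and 7.14 in siNeg, and 7.29 and 7.19 in Control at 48 h. The siMPS1 arrays stayed near their level at 6 h (7.67 and 7.59) while siNeg and Control were lower than at 6 h. The change was 0.49 (SE 0.08, adjusted p = 0.000621) and 0.59 (SE 0.08, adjusted p = 2.25e-05) against siNeg and 0.40 (adjusted p = 0.00285) and 0.42 (adjusted p = 0.000834) against Control. A second probe set gave 0.52 and 0.37 against siNeg, and the dimmest 0.16 and -0.32. SLC35F2, known as the route by which the drug YM155 enters cells, was higher at 24 h by 0.45 (SE 0.08, adjusted p = 0.000759), with 8.49 and 8.59 in siMPS1 against 8.03 and 8.14 in siNeg and 0.21 (adjusted p = 0.083) against Control. SLC35D2, a Golgi carrier of nucleotide sugars, was higher at 24 h by 0.53 (adjusted p = 0.0197) against siNeg and stood at 0.06 (adjusted p = 0.842) against Control. Its call was lost without any 1 of the 4 arrays, at 0.54 (adjusted p = 0.0673), 0.53 (adjusted p = 0.0966), 0.54 (adjusted p = 0.099) and 0.53 (adjusted p = 0.0976) in the order siMPS1 replicate 1 and 2 and siNeg replicate 1 and 2. SLC33A1, which moves acetyl-CoA into the endoplasmic reticulum and was named after its values were seen, was lower at 24 h with a change of -0.32 (adjusted p = 0.0137), and its second probe set gave -0.47. At 48 h SLC35E1 was higher by 0.75 (SE 0.14, adjusted p = 0.000598) against siNeg, with 0.29 (adjusted p = 0.146) against Control and -0.46 (adjusted p = 0.0382) for siNeg minus Control, and its other probe sets gave 0.38 and 0.45. SLC35G2 was lower at 48 h with a change of -0.46 (adjusted p = 0.0109) against siNeg and -0.40 (adjusted p = 0.026) against Control. It was at -0.35 (adjusted p = 0.121) without siMPS1 replicate 2 and -0.40 (adjusted p = 0.081) without siNeg replicate 2.

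The 16 genes of the amino acid and peptide families had 0 calls against siNeg at 6 h, 1 higher and 1 lower at 24 h, and 4 higher and 0 lower at 48 h, with class medians of 0.10, 0.01 and 0.18. At an unadjusted p under 0.05 in limma, 27 of all 88 SLC genes passed at 6 h. Such values were common among the 7828 genes tested. Ranked by p over all genes, SLC39A6 (unadjusted p = 0.0392 in limma) was at 1646 and SLC35G2 (0.0539) at 1908. The number of all genes that passed therefore lay between these ranks. SLC6A8, the creatine transporter, was higher in siMPS1 at 48 h. It read 8.80 and 8.70 in siMPS1, 8.20 and 8.02 in siNeg, and 7.99 and 8.01 in Control, and both siMPS1 arrays were above the other 4. The change was 0.64 (SE 0.10, adjusted p = 7.46e-05) against siNeg and 0.74 (SE 0.10, adjusted p = 2.28e-05) against Control, a fold of 1.55 with a 95% interval of 0.43 to 0.84 on the log2 scale against siNeg. Its other probe sets gave 0.56 and 0.42. SLC38A7, a carrier that exports glutamine from lysosomes, had 6.37 and 6.52 in siMPS1, 5.70 and 5.67 in siNeg, and 5.71 and 5.83 in Control at 48 h, again with siMPS1 above the other groups. It was higher by 0.73 (SE 0.12, adjusted p = 0.00025) against siNeg and 0.65 (adjusted p = 0.000893) against Control, and its second probe set gave 0.62. SLC36A1, a proton-coupled amino acid carrier of the lysosome, was higher by 0.89 (adjusted p = 0.00299) against siNeg and stood at 0.38 (adjusted p = 0.18) against Control. Without siMPS1 replicate 2 it was at 0.65 (adjusted p = 0.0603).

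SLC38A1 and SLC38A2 (SNAT1 and SNAT2), sodium-coupled carriers of glutamine and other neutral amino acids, were called at different times. SLC38A1 had 9.0 and 8.92 in siMPS1, 9.49 and 9.44 in siNeg, and 9.62 and 9.62 in Control at 24 h, with siMPS1 well below both other groups. It was lower with a change of -0.50 (SE 0.06, adjusted p = 1.15e-05) against siNeg and -0.65 (SE 0.06, adjusted p = 5.61e-07) against Control. At 48 h it was at 0.02 (adjusted p = 0.816) against siNeg, and siMPS1 and siNeg were both lower than Control, with changes of -0.28 (adjusted p = 0.00112) and -0.31 (adjusted p = 0.00153). SLC38A2 had 9.82 and 9.89 in siMPS1, 9.40 and 9.40 in siNeg, and 9.79 and 9.78 in Control at 48 h, where siNeg was lowest and siMPS1 slightly above Control. It was higher by 0.45 (SE 0.05, adjusted p = 6.06e-06) against siNeg and stood at 0.07 (adjusted p = 0.397) against Control, with -0.38 (adjusted p = 0.000129) for siNeg minus Control. Both SLC38A2 probe sets gave nearly the same value against siNeg at 48 h, 0.45 and 0.43. Of the carriers listed for the amino acid response, in which the factor ATF4 raises amino acid uptake, 5 of 6 were among the 88 genes. SLC38A2 was higher at 48 h and SLC38A1 lower at 24 h, and SLC1A4, SLC1A5 and SLC7A1 passed at no time against siNeg, with -0.05, -0.27 and 0.10 at 48 h. Their other probe sets above the filter did not all give such values: at 48 h those of SLC1A4 gave 0.66 and -0.07, and those of SLC7A1 gave 0.94 and 0.60. ATF4 itself was higher at 48 h, by 0.48 (adjusted p = 1.56e-05) against siNeg and 0.32 (adjusted p = 0.000947) against Control. Of the 4 genes left out by name, SLC3A2 and SLC7A5, the chains of the LAT1 amino acid exchanger, were higher at 48 h by 0.42 (adjusted p = 0.00093) and 0.26 (adjusted p = 0.00476), while the cystine importer SLC7A11 was at 0.22 (adjusted p = 0.0688) and the glucose carrier SLC2A1 at 0.15 (adjusted p = 0.453). Against Control at 48 h SLC7A5 and SLC2A1 were higher, by 0.49 (adjusted p = 2.19e-05) and 0.43 (adjusted p = 0.0276), SLC7A11 was lower, at -0.39 (adjusted p = 0.00285), and SLC3A2 stood at 0.06 (adjusted p = 0.633). For siNeg minus Control the values were 0.23 (adjusted p = 0.0219) for SLC7A5, 0.27 (adjusted p = 0.214) for SLC2A1, -0.60 (adjusted p = 0.000157) for SLC7A11 and -0.36 (adjusted p = 0.00815) for SLC3A2. SLC7A6, a light chain that exchanges cationic for neutral amino acids, was higher at 24 h by 0.38 (adjusted p = 0.0293), with 0.38 (adjusted p = 0.026) against Control. Its call against siNeg was lost without any 1 of the 4 arrays, at 0.36 (adjusted p = 0.0997), 0.39 (adjusted p = 0.106), 0.39 (adjusted p = 0.112) and 0.36 (adjusted p = 0.138) in the order siMPS1 replicate 1 and 2 and siNeg replicate 1 and 2, and its other probe sets gave -0.08 and -0.09.

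**Figure D4:**
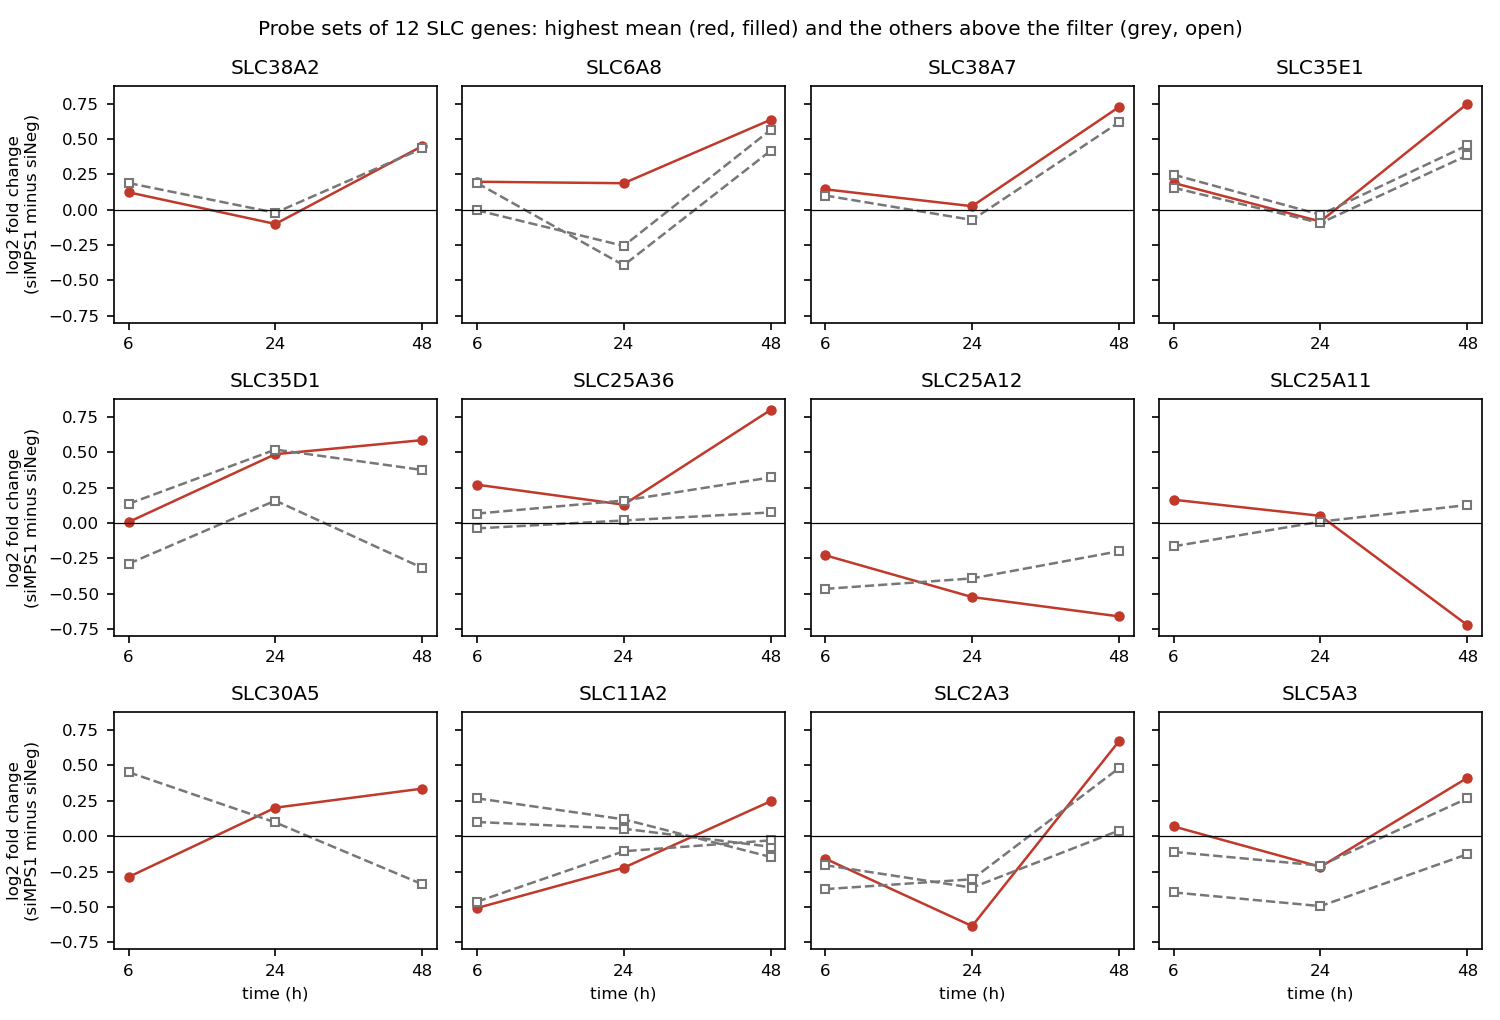
Log2 fold changes of siMPS1 minus siNeg at 6, 24 and 48 h for every probe set above the filter of 12 SLC genes, with the brightest probe set in red and the others in grey. The lines of SLC38A2 run together and end at 0.45 and 0.43, whereas those of SLC25A11 end at -0.72 and 0.13 and those of SLC30A5 cross.

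Of the calls against siNeg, 26 were on genes with another probe set above the filter, and in 9 of these at least 1 other probe set gave the opposite sign. These were SLC30A5, SLC11A2 and SLC35A2 at 6 h, SLC7A6 at 24 h, and SLC30A5, SLC25A11, SLC52A2, SLC5A3 and SLC35D1 at 48 h. SLC30A5 was lower at 6 h and higher at 48 h by the brightest probe set, and its second one gave 0.45 and -0.34. For SLC11A2 the 4 probe sets gave -0.51, 0.10, 0.27 and -0.46 at 6 h. Both probe sets of SLC30A5 and the brightest ones of SLC38A2, SLC25A16, SLC35E1 and SLC52A2 are of the design type (suffix x_at) whose probes can match other transcripts. Among the dimmer probe sets, some of SLC1A4, SLC2A3, SLC6A8 and SLC11A2 are also of this type. In all, 36 of the 88 genes had more than 1 probe set, and 11 further probe sets that name an SLC gene name several genes and were not used.

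Among the 7 genes of the sugar families, 1 was higher and 1 lower at 24 h and 2 were higher and 1 lower at 48 h, with 0 calls at 6 h and class medians of 0.07, -0.04 and 0.40. SLC2A3 (GLUT3), a high-affinity glucose carrier, was lower at 24 h and higher at 48 h against siNeg. It had 5.95 and 5.72 in siMPS1, 6.61 and 6.39 in siNeg, and 6.48 and 6.22 in Control at 24 h and 5.76 and 5.78 in siMPS1, 4.75 and 5.34 in siNeg, and 5.61 and 5.88 in Control at 48 h. At 48 h siMPS1 lay within the range of Control, and siNeg was below both. Its changes were -0.64 (adjusted p = 0.0267) and 0.67 (adjusted p = 0.00803) against siNeg, -0.49 (adjusted p = 0.0766) and 0.02 (adjusted p = 0.955) against Control, and -0.65 (adjusted p = 0.0207) for siNeg minus Control at 48 h. The other probe sets gave 0.04 and 0.48 at 48 h. The 24 h call was lost without siMPS1 replicate 2 (-0.52, adjusted p = 0.192), siNeg replicate 1 (-0.53, adjusted p = 0.204) or siNeg replicate 2 (-0.74, adjusted p = 0.0592), and the 48 h call without siNeg replicate 1 (0.40, adjusted p = 0.145). SLC2A3 has a close relative, SLC2A14, and whether the probe sets also read it was not tested.

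SLC5A3, the sodium-coupled importer of the osmolyte myo-inositol, had 7.61 and 7.71 in siMPS1, 7.27 and 7.22 in siNeg, and 7.93 and 7.79 in Control at 48 h. The siMPS1 arrays lay between siNeg and Control. Its other probe sets gave 0.27 and -0.13 against siNeg at 48 h. It was higher by 0.41 (SE 0.08, adjusted p = 0.000763) against siNeg and stood at -0.19 (adjusted p = 0.0823) against Control, with -0.60 (adjusted p = 8.14e-05) for siNeg minus Control. It was the 1 gene of the 3 listed osmolyte carriers that passed the threshold of level. NFAT5, the factor that raises osmolyte uptake in hypertonic medium, was at 1.37 (adjusted p = 1.95e-07) against siNeg, 0.13 (adjusted p = 0.471) against Control and -1.24 (adjusted p = 3.15e-06) for siNeg minus Control. SLC37A4, which takes glucose 6-phosphate into the endoplasmic reticulum, was lower at 48 h with a change of -0.69 (adjusted p = 0.00586) against siNeg and at -0.30 (adjusted p = 0.213) against Control, and its second probe set gave -1.10. Without siMPS1 replicate 1 it was at -0.47 (adjusted p = 0.102) and without siNeg replicate 1 at -0.55 (adjusted p = 0.0777). SLC5A6, which is grouped here by family but imports biotin and pantothenate, was higher at 24 h by 0.39 (adjusted p = 0.0494) against siNeg and at 48 h by 0.62 (adjusted p = 0.00119) against Control. Its 24 h call was lost without siMPS1 replicate 2 (0.22, adjusted p = 0.422), siNeg replicate 1 (0.47, adjusted p = 0.0937) or siNeg replicate 2 (0.31, adjusted p = 0.272). BSG (basigin), the chaperone of the lactate carriers, was lower at 48 h with a change of -0.76 (adjusted p = 2.27e-06) against siNeg and -0.33 (adjusted p = 0.0059) against Control. TXNIP, which lowers glucose uptake by removing glucose carriers from the cell surface, was higher at 24 and 48 h, by 0.95 (adjusted p = 0.000126) and 0.58 (adjusted p = 0.00295) against siNeg. Its values against Control are not given, so a part of siNeg in these rises cannot be told.

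Of the 9 genes of the ion and pH families, 0 were called against siNeg at 6 h, 2 were lower at 24 h, and 1 was higher and 2 lower at 48 h, with class medians of -0.04, 0.01 and -0.07. SLC12A2 (NKCC1), the cotransporter of sodium, potassium and chloride, had 6.54 and 6.52 in siMPS1, 7.18 and 7.01 in siNeg, and 7.23 and 7.16 in Control at 48 h. Both siMPS1 arrays were below the other 4. It was lower with a change of -0.55 (SE 0.09, adjusted p = 0.00019) against siNeg and -0.65 (SE 0.09, adjusted p = 5.13e-05) against Control. WNK1, a kinase upstream of this cotransporter, was higher at 48 h by 0.48 (adjusted p = 0.00098) against siNeg and stood at -0.03 (adjusted p = 0.861) against Control. SLC20A1 (PiT-1), a phosphate importer, was lower at 24 h with a change of -0.30 (SE 0.07, adjusted p = 0.00752) against siNeg. Against Control it was lower at 6, 24 and 48 h, with changes of -0.27, -0.38 and -0.25 (adjusted p = 0.0118, 0.00106 and 0.00923). Without siMPS1 replicate 2 the 24 h value against siNeg was -0.29 (adjusted p = 0.0527) and without siNeg replicate 2 (-0.26, adjusted p = 0.0842).

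SLC4A2 (AE2), an exchanger of chloride and bicarbonate with a mean signal of 5.29 near the threshold, was lower at 24 and 48 h. Its signals were 5.0 and 4.64 in siMPS1, 5.51 and 5.58 in siNeg, and 5.40 and 5.86 in Control at 24 h and 5.47 and 5.47 in siMPS1, 6.64 and 6.05 in siNeg, and 5.37 and 5.24 in Control at 48 h. At 48 h the siNeg arrays were above both other groups. The change was -0.67 (adjusted p = 0.0428) and -0.84 (adjusted p = 0.00476) against siNeg, -0.75 (adjusted p = 0.0226) and 0.15 (adjusted p = 0.633) against Control, and 0.99 (adjusted p = 0.00361) for siNeg minus Control at 48 h. Its 24 h call was lost without siMPS1 replicate 2 (-0.51, adjusted p = 0.274), siNeg replicate 1 (-0.70, adjusted p = 0.144) or siNeg replicate 2 (-0.64, adjusted p = 0.174), and the 48 h call without siNeg replicate 1 (-0.56, adjusted p = 0.101). SLC26A2, the sulfate carrier of the plasma membrane, had 6.20 and 5.82 in siMPS1, 5.26 and 5.09 in siNeg, and 5.79 and 5.80 in Control at 48 h. It was higher by 0.79 (SE 0.15, adjusted p = 0.000573) against siNeg and at 0.20 (adjusted p = 0.337) against Control, with -0.58 (adjusted p = 0.0139) for siNeg minus Control.

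In the 6 genes of vitamin and organic ion families, 1 was lower at 6 h, 1 lower at 24 h and 1 higher at 48 h, with class medians of 0.02, 0.14 and 0.06. SLC19A2, the high-affinity importer of thiamine, had 6.87 and 7.02 in siMPS1, 7.55 and 7.49 in siNeg, and 7.31 and 7.48 in Control at 6 h. At 24 h it had 6.18 and 5.73 in siMPS1, 6.71 and 6.90 in siNeg, and 6.56 and 6.75 in Control. At 48 h it had 5.61 and 5.97 in siMPS1, 5.88 and 6.18 in siNeg, and 6.32 and 6.55 in Control. The siMPS1 arrays were below those of siNeg and Control at 6 and 24 h, and overlapped siNeg at 48 h. The change against siNeg was -0.57 (adjusted p = 0.0306) at 6 h, -0.82 (SE 0.15, adjusted p = 0.0018) at 24 h and -0.23 (adjusted p = 0.276) at 48 h, and against Control -0.44 (adjusted p = 0.0551), -0.67 (adjusted p = 0.00741) and -0.62 (adjusted p = 0.00543). The 24 h call held in every fit, and the 6 h call was lost without siMPS1 replicate 1 (-0.50, adjusted p = 0.134), siMPS1 replicate 2 (-0.64, adjusted p = 0.105), siNeg replicate 1 (-0.54, adjusted p = 0.157) or siNeg replicate 2 (-0.60, adjusted p = 0.112). SLC52A2, a riboflavin importer, was higher at 48 h by 0.39 (adjusted p = 0.0228) against siNeg and 0.49 (adjusted p = 0.00646) against Control, and its second probe set gave -0.18 against siNeg. It was at 0.19 (adjusted p = 0.322) without siMPS1 replicate 1 and 0.30 (adjusted p = 0.166) without siNeg replicate 1.

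Of the 4 genes of other families, SLC17A5 (sialin), which exports sialic acid from lysosomes, was higher at 24 and 48 h. Its mean of 5.28 was near the threshold, and it had 5.69 and 5.59 in siMPS1, 4.83 and 5.16 in siNeg, and 4.95 and 5.20 in Control at 48 h, with siMPS1 above the other 4 arrays. The change was 0.55 (adjusted p = 0.047) and 0.60 (adjusted p = 0.0142) against siNeg and 0.29 (adjusted p = 0.305) and 0.53 (adjusted p = 0.0301) against Control. The 24 h call was lost without siMPS1 replicate 2 (0.38, adjusted p = 0.34), siNeg replicate 1 (0.61, adjusted p = 0.132) or siNeg replicate 2 (0.50, adjusted p = 0.207), and the 48 h call without siMPS1 replicate 1 (0.55, adjusted p = 0.0857) or siNeg replicate 1 (0.45, adjusted p = 0.141). SLC75A1, SLC67A1 and SLC61A1 passed at no time against siNeg, and SLC75A1 was lower against Control at 24 h with a change of -0.79 (adjusted p = 0.016). Of the 146 SLC genes at or below the threshold, 33 passed the filter on low signals. Of these 33, SLC25A40, SLC2A10 and SLC2A4RG were lower and 0 were higher against siNeg at 48 h. Among all genes tested 13.5% were lower and 15.7% higher at 48 h. At 6 and 24 h 0 of the 33 were called, beside 4.25% and 5.81% of all genes lower and 3.45% and 5.14% higher.

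Against Control, 8 SLC genes were higher and 12 lower in siMPS1 at 6 h, beside 9.29% and 7.28% of all genes. At 24 h 3 were higher and 15 lower (3.41% and 17% of the 88), beside 5.49% and 7.19% of all genes. At 48 h 9 were higher and 14 lower (10.2% and 15.9%), beside 15.3% and 12.2%. Among the largest rises at 6 h were SLC25A16 at 0.96 (adjusted p = 0.0135), the sugar carrier SLC2A6 at 0.80 (adjusted p = 0.023) and the dicarboxylate carrier SLC25A10 at 0.67 (adjusted p = 0.0305). The largest falls included SLC35E3 at -1.10 (adjusted p = 0.00207) and SLC25A24, a carrier of ATP-magnesium and phosphate, at -0.64 (adjusted p = 0.0281). SLC25A24 was also lower against Control at 48 h in siMPS1, with a change of -0.61 (adjusted p = 0.0222), and in siNeg, with a change of -0.62 (adjusted p = 0.0376). At 48 h the glutamate carrier SLC25A22 was higher against Control by 0.71 (adjusted p = 0.0133). SLC10A3 was higher at 24 h by 0.35 (adjusted p = 0.0442). Centring each array on its median moved the median of all genes to -0.17 at 6 h, and the split was then 3 higher and 28 lower. At 24 h that setting gave 7 higher and 12 lower. No share of all genes called with median centring is given, so these splits cannot be read as particular to SLC genes. Without single arrays the count of 20 at 6 h was 9 (siMPS1 replicate 2), 12 (Control replicate 1) and 7 (Control replicate 2), the count of 18 at 24 h was 11 (siMPS1 replicate 2) and 8 (Control replicate 2), and the count of 23 at 48 h was 15 (Control replicate 2). Single calls against Control that ended on leaving out 1 array were, at 6 h, SLC25A16 (2 of 4 arrays, 0.67 with adjusted p = 0.157 without Control replicate 2), SLC2A6 (3 of 4 arrays, 0.61 with adjusted p = 0.169 without Control replicate 1), SLC25A10 (2 of 4 arrays, 0.41 with adjusted p = 0.278 without Control replicate 2), SLC25A24 (3 of 4 arrays, -0.52 with adjusted p = 0.185 without siMPS1 replicate 2), SLC25A17 (3 of 4 arrays, -0.43 with adjusted p = 0.255 without Control replicate 2) and SLC25A13 (4 of 4 arrays, -0.59 with adjusted p = 0.13 without siMPS1 replicate 2). At 24 h they were SLC10A3 (4 of 4 arrays, 0.27 with adjusted p = 0.274 without Control replicate 2), SLC4A2 (2 of 4 arrays, -0.53 with adjusted p = 0.232 without Control replicate 2), SLC75A1 (3 of 4 arrays, -0.46 with adjusted p = 0.189 without siMPS1 replicate 1) and SLC7A6 (4 of 4 arrays, 0.35 with adjusted p = 0.142 without Control replicate 2). At 48 h they were SLC25A22 (3 of 4 arrays, 0.67 with adjusted p = 0.0768 without Control replicate 2), SLC25A24 (3 of 4 arrays, -0.46 with adjusted p = 0.181 without siMPS1 replicate 1) and SLC19A2 (2 of 4 arrays, -0.45 with adjusted p = 0.0821 without siMPS1 replicate 1).

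The negative siRNA itself was set against untransfected cells in the same way. At 6 h 5 SLC genes were higher and 0 lower in siNeg, beside 2.84% higher and 0.984% lower among all genes. At 24 h 0 SLC genes were higher and 1 lower, beside 0.46% and 0.473% of all genes. At 48 h 4 SLC genes were higher and 13 lower (4.55% and 14.8%), beside 6.82% and 6.11%. At an unadjusted p under 0.05 in limma, 19 SLC genes passed at 6 h and 10 at 24 h. Such values were common among the 7828 genes tested. Ranked by p over all genes, SLC2A1 (unadjusted p = 0.0373 in limma) was at 1285 at 6 h. At 24 h SLC7A5 (unadjusted p = 0.0396 in limma) was at 1014. The 6 h rises were SLC25A16 at 1.17 (adjusted p = 0.0124), SLC1A5, the glutamine carrier ASCT2, at 0.57 (adjusted p = 0.0493), SLC35E1 at 0.56 (adjusted p = 0.0352), SLC52A2 at 0.55 (adjusted p = 0.0194) and SLC7A6 at 0.39 (adjusted p = 0.0486). SLC25A16 read 7.27 and 7.05 in siMPS1, 7.34 and 7.41 in siNeg, and 6.48 and 5.87 in Control at 6 h, and both transfected groups were above Control. The single fall at 24 h was SLC25A36 at -0.36 (adjusted p = 0.0496). At 48 h the monocarboxylate family gene SLC16A4 was lower with a change of -0.68 (adjusted p = 0.0371), and SLC1A5 was higher by 0.65 (adjusted p = 0.0104). For SLC2A3, SLC5A3, SLC26A2, SLC25A36, SLC38A2, SLC35E1, SLC39A14 and SLC30A5 the siNeg cells were called lower than Control at 48 h, siMPS1 was called higher than siNeg, and siMPS1 was not called against Control. Both comparisons share the siNeg arrays. With median centring the split at 6 h was 2 higher and 15 lower, with the median of all genes at -0.14, and with quantile normalization 2 higher and 1 lower. At 48 h median centring gave 2 higher and 13 lower. The shares of all genes called in these settings are not given, so the splits cannot be read as particular to SLC genes. The count of 5 at 6 h was 1 and 0 without siNeg replicate 1 and 2 and 2 and 0 without Control replicate 1 and 2. The count of 1 at 24 h was 0 without siNeg replicate 2 or either Control array, and without siNeg replicate 1 a gene was called higher. The count of 17 at 48 h was 8, 9 and 9 without siNeg replicate 1, Control replicate 1 or Control replicate 2. Single calls that ended without 1 array were, at 6 h, SLC25A16 (3 of 4 arrays, 0.87 with adjusted p = 0.128 without Control replicate 2), SLC1A5 (4 of 4 arrays, 0.43 with adjusted p = 0.288 without Control replicate 2), SLC35E1 (4 of 4 arrays, 0.49 with adjusted p = 0.177 without Control replicate 2), SLC52A2 (2 of 4 arrays, 0.47 with adjusted p = 0.173 without siNeg replicate 2) and SLC7A6 (4 of 4 arrays, 0.31 with adjusted p = 0.317 without Control replicate 1). At 24 h this was SLC25A36 (4 of 4 arrays, -0.31 with adjusted p = 0.253 without siNeg replicate 2). At 48 h they were SLC16A4 (4 of 4 arrays, -0.56 with adjusted p = 0.244 without siNeg replicate 1), SLC1A5 (2 of 4 arrays, 0.39 with adjusted p = 0.144 without siNeg replicate 2), SLC4A2 (1 of 4 arrays, 0.71 with adjusted p = 0.0876 without siNeg replicate 1), SLC25A37 (4 of 4 arrays, 0.34 with adjusted p = 0.196 without siNeg replicate 2), SLC25A11 (3 of 4 arrays, 0.21 with adjusted p = 0.204 without siNeg replicate 1), SLC2A3 (2 of 4 arrays, -0.38 with adjusted p = 0.282 without siNeg replicate 1) and SLC25A24 (3 of 4 arrays, -0.34 with adjusted p = 0.404 without siNeg replicate 1).

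SLC genes also changed with time in cells that were not transfected. In Control at 24 h against 6 h, 29 were higher and 13 lower (33% and 14.8% of the 88), beside 27.1% and 15.9% of all genes. At 48 h against 24 h, 7 were higher and 20 lower (7.95% and 22.7%), beside 8% and 11.6%. SLC31A1 had 5.66 and 5.99 at 6 h, 7.27 and 7.23 at 24 h and 7.03 and 6.88 at 48 h, a change of 1.38 (SE 0.15, adjusted p = 5.65e-07) between the first times. SLC4A2, SLC35D2, SLC35G2 and SLC17A5 were also higher at 24 h than at 6 h, by 1.18, 1.13, 0.97 and 0.93 (adjusted p = 0.000146, 3.77e-06, 6.68e-06 and 0.000289). SLC16A4, SLC12A2, SLC5A3, SLC20A1 and the glutamate carrier SLC1A3 were lower at 24 h than at 6 h, with changes of -1.11, -1.04, -1.04, -0.74 and -0.98 (adjusted p = 0.000281, 4.71e-08, 8.45e-09, 6.08e-08 and 0.00255). Between 24 and 48 h SLC16A4 and SLC12A2 were higher again, by 1.04 (adjusted p = 0.0019) and 0.58 (adjusted p = 0.000267). The mitochondrial carriers SLC25A11, SLC25A4 and SLC25A20, the last a carrier of acylcarnitines, were higher at 48 h than at 24 h by 0.50, 0.48 and 0.39 (adjusted p = 0.000115, 0.00764 and 0.0279). SLC25A16, SLC7A6, SLC17A5, SLC2A3 and SLC35G2 were lower, with changes of -0.73, -0.71, -0.68, -0.58 and -0.57 (adjusted p = 0.0428, 0.000172, 0.00987, 0.0287 and 0.00409). Median centring gave 19 higher and 19 lower for 24 h against 6 h. For 48 h against 24 h it turned the split to 17 higher and 6 lower, with the median of all genes at 0.10. Quantile normalization gave 11 higher and 16 lower in that interval. The shares of all genes called in these settings are not given, so the splits cannot be read as particular to SLC genes. The count of 27 for 48 h against 24 h was 17 and 11 without Control 24 h replicate 1 and 2 and 16 and 14 without Control 48 h replicate 1 and 2. The call ended without 1 array for SLC1A3 (1 of 4 arrays, -0.66 with adjusted p = 0.0637 without Control 24 h replicate 2) in the first interval and for SLC25A16 (4 of 4 arrays, -0.62 with adjusted p = 0.199 without Control 24 h replicate 1), SLC25A20 (4 of 4 arrays, 0.34 with adjusted p = 0.155 without Control 48 h replicate 1), SLC25A4 (2 of 4 arrays, 0.46 with adjusted p = 0.057 without Control 48 h replicate 2), SLC17A5 (2 of 4 arrays, -0.59 with adjusted p = 0.0944 without Control 24 h replicate 2), SLC2A3 (2 of 4 arrays, -0.45 with adjusted p = 0.197 without Control 24 h replicate 1) and SLC35G2 (1 of 4 arrays, -0.40 with adjusted p = 0.0784 without Control 48 h replicate 1) in the second.

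**Figure D5:**
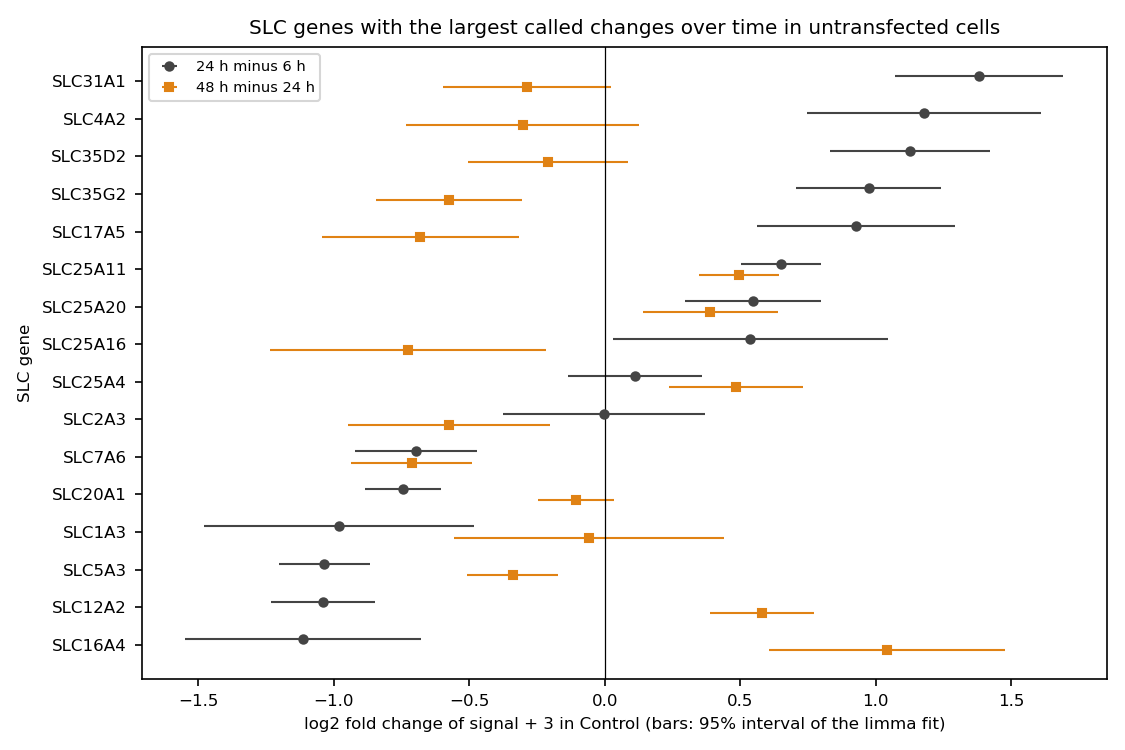
Log2 fold changes between successive times in untransfected cells for 16 SLC genes named for the largest called changes, with 24 h minus 6 h as circles, 48 h minus 24 h as squares and 95% intervals of the limma fit as bars. SLC31A1 is at the top with 1.38 for 24 h minus 6 h, and SLC16A4 and SLC12A2 are negative for 24 h minus 6 h and positive for 48 h minus 24 h.

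The difference between siMPS1 and siNeg was itself compared between successive times. For 24 h minus 6 h, 7 SLC genes were called higher and 1 lower (7.95% and 1.14% of the 88), beside 1.88% and 1.8% of all genes. For 48 h minus 24 h, 14 were higher and 7 lower (15.9% and 7.95%), beside 8.94% and 6.83%. SLC35D2 and SLC39A8 led the first comparison, at 0.82 (SE 0.20, adjusted p = 0.0275) and 0.61 (SE 0.16, adjusted p = 0.0364), and the bicarbonate carrier SLC4A7 was at 0.57 (adjusted p = 0.0172) though its changes at the single times were -0.29 (adjusted p = 0.056) and 0.28 (adjusted p = 0.0534). SLC38A1 was the 1 gene called lower, at -0.46 (SE 0.08, adjusted p = 0.00373). In the second comparison SLC2A3 was at 1.31 (SE 0.25, adjusted p = 0.0016), SLC39A7 at 0.94 (adjusted p = 0.00982) and SLC39A14 at 0.82 (adjusted p = 3.23e-05), whereas SLC25A11 was at -0.77 (SE 0.10, adjusted p = 5.48e-05) and SLC37A4 at -0.82 (adjusted p = 0.0286). Of the 6 SLC38 genes 3 were called higher in the second comparison, SLC38A7 at 0.70 (adjusted p = 0.0111), SLC38A2 at 0.55 (adjusted p = 0.000101) and SLC38A1 at 0.52 (adjusted p = 0.000232). The other SLC38 genes were not called, with SLC38A6 at 0.57 (adjusted p = 0.0724), SLC38A10 at 0.17 (adjusted p = 0.68) and SLC38A12 at -0.54 (adjusted p = 0.342). Both comparisons share the 24 h arrays. A second probe set of SLC35D2, SLC4A7 and SLC25A11 moved the other way, with values given further below. The count of 8 was 2 to 5 without siMPS1 6 h replicate 2 (5), siNeg 6 h replicate 1 (2) or 2 (3), siMPS1 24 h replicate 1 (4), or siNeg 24 h replicate 1 (4) or 2 (2). The count of 21 was 13 without siMPS1 24 h replicate 2 and 12 without siNeg 24 h replicate 1. Calls that ended without 1 array were SLC35D2 (7 of 8 arrays, 0.65 with adjusted p = 0.0889 without siMPS1 6 h replicate 1), SLC39A8 (7 of 8 arrays, 0.43 with adjusted p = 0.115 without siMPS1 6 h replicate 1) and SLC4A7 (5 of 8 arrays, 0.52 with adjusted p = 0.0748 without siNeg 24 h replicate 2) for the first comparison and SLC39A7 (2 of 8 arrays, 0.80 with adjusted p = 0.0563 without siNeg 24 h replicate 1) and SLC37A4 (5 of 8 arrays, -0.60 with adjusted p = 0.139 without siMPS1 48 h replicate 1) for the second.

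Other genes of transport were taken from a list of 51 partners and regulators, of which 37 were measured. Against siNeg 5 were higher and 0 lower at 6 h, 1 higher and 4 lower at 24 h, and 11 higher and 3 lower at 48 h, with medians of 0.07, -0.10 and 0.15. Among all genes tested 3.45% were higher and 4.25% lower at 6 h, 5.14% and 5.81% at 24 h, and 15.7% and 13.5% at 48 h. Against Control 5 partners were higher and 0 lower at 6 h, 1 higher and 4 lower at 24 h, and 7 higher and 4 lower at 48 h, with medians of 0.08, -0.12 and -0.05. Beside these, 9.29%, 5.49% and 15.3% of all genes were higher against Control at the successive times, and 7.28%, 7.19% and 12.2% lower. For siNeg minus Control there were 0 calls at 6 h, 1 lower at 24 h, and 1 higher and 7 lower at 48 h, with a median of -0.14 at 48 h. Of all genes, 2.84%, 0.46% and 6.82% were higher in that comparison at the successive times, and 0.984%, 0.473% and 6.11% lower. ATP1B3 and ATP1B1, subunits of the sodium pump whose gradient drives many SLC carriers, were higher at 48 h by 0.32 (adjusted p = 0.00167) and 0.23 (adjusted p = 0.00778) against siNeg. Against Control they stood at 0.12 (adjusted p = 0.231) and -0.07 (adjusted p = 0.439). ATP7A, which exports copper, was higher by 0.50 (adjusted p = 0.0263) against siNeg and stood at 0.71 (adjusted p = 0.00358) against Control, and FTL, the light chain of ferritin, was higher by 0.31 (adjusted p = 0.00621) and stood at 0.25 (adjusted p = 0.0263). MFSD1, a lysosomal carrier outside the SLC families, was higher by 0.72 (adjusted p = 6.93e-06) against siNeg and stood at 0.29 (adjusted p = 0.02) against Control.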

How the data were processed

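U251 RNA was measured on Affymetrix arrays, 18 in 9 groups of 2 taken from the labels. The deposited log2 values are the authors' MAS5 signals, per the submitters' processing notes, scaled so that each array's trimmed mean (2% left out at each end) was 100.122 to 100.134 before the log. Array medians were 4.30 to 4.56, and 9.38% of values were below 0. Of 22277 probe sets, 62 were controls, and 19064 named 1 gene, 1043 several and 2108 none. The dimmest 40% of probe sets were left out and the brightest one per gene kept, which gave 7828 genes. limma 3.58.1 (R 4.3.3) was fitted to log2(signal + 3) with 9 group means over all arrays and an intensity trend. Tests were two-sided, with Benjamini-Hochberg adjustment for each comparison. The fit was tested on simulated data. A fold change on this scale understates changes of dim genes.

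The SLC genes, classes and partner lists were chosen with earlier results of these data known. Named genes are the up to 10 largest called rises and falls against siNeg at each time, up to 5 in the other comparisons, the 5 with the highest mean, the neighbours of the threshold, up to 4 per class by smallest p, and TTK. Partner genes beyond the 4 smallest p at a time were named after their values were seen. Other pseudocounts, scaling, filters, probe set choice, sample sets, a replicate block and leaving out each array were tried. Replicates of the same number were not paired: their deviations correlated between -0.09 and 0.10.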

Additional observations from a re-analysis of the deposited data

Results flagged for a closer look

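The change between siMPS1 and siNeg differed between successive times for several SLC genes, by limma's test of the difference itself. From 6 to 24 h the change moved by 0.82 for SLC35D2 and 0.61 for SLC39A8. It moved by 0.57 for SLC4A7, 0.54 for SLC30A9 and 0.51 for SLC35F2, and by -0.46 for the glutamine carrier SLC38A1. From 24 to 48 h it moved by 1.31 for the glucose carrier SLC2A3, 0.94 for the zinc carrier SLC39A7 and 0.83 for SLC35E1. It moved by 0.82 for SLC39A14 and 0.71 for the mitoferrin SLC25A37. The change went down by this measure for SLC37A4 (-0.82), SLC25A11 (-0.77), SLC7A6 (-0.51), SLC30A9 (-0.48) and SLC35F2 (-0.37). All values are log2. SLC30A9 and SLC35F2 were called upward first and downward after, and both intervals share the 24 h arrays. Of these 16 differences, those of SLC38A1 from 6 to 24 h and of SLC2A3, SLC39A14 and SLC25A11 from 24 to 48 h were still called when any 1 array of the comparison was left out. Some second probe sets moved the other way. From 24 to 48 h they went from 0.009 to 0.13 (SLC25A11), -0.21 to -0.35 (SLC25A37) and -0.08 to 0.11 (SLC7A6). From 6 to 24 h they went from 0.465 to 0.17 (SLC35D2) and 0.16 to -0.27 (SLC4A7). The other probe sets above the filter of SLC2A3, SLC35E1, SLC37A4 and SLC39A8, and the dimmest such ones of SLC4A7 and SLC7A6, moved as the brightest did. Groups of 2 arrays are too small to test for a single array that stands apart.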

How the results depend on the processing

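Counts of called SLC genes depended on a fold minimum, on single arrays and on the threshold of level, which sets how many genes are counted. At the main threshold 11, 20 and 27 of 88 genes were called against siNeg at 6, 24 and 48 h. A mean above 7 left 35 genes, so its lower counts do not show that a lower share was called. No share of all genes above that level is given. With a mean above 7 (35 genes) the counts against siNeg were 5, 8 and 15 at 6, 24 and 48 h, against Control 12, 8 and 13, for siNeg minus Control 2 at 6 h and 11 at 48 h, and for Control 19 and 17 in the first and second interval. With a fold of at least 1.5 they were 4, 7 and 17 against siNeg, 11, 9 and 9 against Control, 1, 0 and 7 for siNeg minus Control, 4 for Control from 24 to 48 h, and 2 and 11 for the differences between times. Without an intensity trend 0 were called against siNeg at 6 h, 0 for siNeg minus Control at 6 and at 24 h, and 3 for the first difference. The mean over probe sets gave 6 against siNeg at 6 h, 0 for siNeg minus Control at 24 h and 4 for the first difference. It also turned SLC30A5 to 0.082 (limma, adjusted p = 0.745) at 6 h and to -0.0020 (limma, adjusted p = 0.994) at 48 h. Fitting only the compared groups gave 12 against siNeg at 24 h and 12 for the second difference. For siNeg minus Control, median centring gave 17 and 0, no filter 2 and 0 at 6 and 24 h, quantile normalization 3 at 6 h and a pseudocount of 1 gave 0 at 24 h. Median centring gave 31 against Control at 6 h. No share of all genes called is given for these settings. With a replicate block the counts were 10, 18 and 26 against siNeg and 3 for siNeg minus Control at 6 h, and no other count moved by over 1.5 times.

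Leaving out 1 array gave 1 to 6, 9 to 19 and 19 to 27 against siNeg, 7 to 14, 8 to 12 and 15 to 20 against Control, 0 to 2, 0 to 1 and 8 to 13 for siNeg minus Control, 32 to 37 and 11 to 17 for Control, and 2 to 6 and 12 to 23 for the differences. Of the named calls against siNeg, 0 of 11, 6 of 18 and 9 of 27 held in every setting at 6, 24 and 48 h. Of 3621 single-gene values under alternatives, 412 lost their call, 30 gained one and 2 changed sign. The cause was not tested. With 2 arrays per group, small differences in dim genes cannot be told from array spread.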
